A study of Mus musculus with 23 samples.

Results

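Mouse embryonic fibroblasts whose p53 carries a mutated first activation domain (the 25,26 group) were compared with fibroblasts that make wild-type p53 (the WT group), all of them carrying retroviral H-Ras V12. The question was which gene programmes need the first domain. The arrays were chosen by their titles: 5 arrays titled LSL-25,26 with Cre against 6 wild-type arrays, 11 of the 23 arrays in all. In the 25,26 cells a knock-in allele with mutations in the first domain lies behind a removable stop cassette (LSL), and adenoviral Cre recombinase removes the cassette. The WT group joined 3 arrays of cells with the same cassette before a wild-type allele (LSL-WT Cre) and 3 arrays titled WT, with no cassette (WT Cre), and both parts had also received adenoviral Cre. Strain was 129/Sv for 4 of the 25,26 arrays and 3 of the WT arrays, and a 129/Sv and C57BL6 mixture for 1 and 3. In the groups used for comparison, 129/Sv and mixed arrays numbered 1 and 2 in 53,54, 2 and 1 in QM, and 4 and 2 in Null. The genotype label of WT Cre replicate 3 names the LSL-WT allele, against its title, and the title was followed. The other 3 groups served as comparison, all with H-Ras V12: 53,54 with 3 arrays (second domain mutated, Cre), QM with 3 arrays (the mutant titled QM, Cre), and Null with 6 arrays (LSL-WT cells given Empty adenovirus in place of Cre, and p53-null cells given Cre). The labels do not say whether replicates came from separate embryos or cultures, so p-values measure the spread between these arrays.

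The tumour suppressor p53 is a transcription factor that binds DNA as a tetramer and switches genes on through its amino-terminal activation domains. The first domain contacts general transcription factors and coactivators, and it is also the surface bound by Mdm2, the ubiquitin ligase that degrades p53. In fibroblasts, activated Ras signals through Arf to p53, and p53 then raises the Cdk inhibitor p21, made by Cdkn1a, which keeps Rb-family proteins active and shuts down genes of DNA replication and mitosis. Repressor complexes of that kind are known to act through E2F sites and through short promoter elements of the cell-cycle genes.

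Promoter sequences of genes that the results turn on are given here, from RefSeq on mouse build GRCm38.p6. The promoter window was 250 bases before to 50 bases after an annotated start, and both strands were searched. Cdkn1a is shown because it is the leading arrest gene of p53 and fell in 25,26 cells, and because 1 of its windows holds a pair of p53 consensus decamers, separated by 12 bases. The 250 bases before the start of that window, chr17:29090729-29090978 on the plus strand, have the decamers in capitals. Only exact matches to the consensus were counted. The bases tgacatgttc, directly after the second decamer, depart from the consensus at their first base and are not in capitals. Which of these decamers p53 binds was not tested.
Cdkn1a: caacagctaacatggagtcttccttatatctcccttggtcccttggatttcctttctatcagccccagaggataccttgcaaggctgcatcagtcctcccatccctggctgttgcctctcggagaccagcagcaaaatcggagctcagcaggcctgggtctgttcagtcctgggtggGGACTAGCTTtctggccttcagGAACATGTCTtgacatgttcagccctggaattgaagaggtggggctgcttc
Such a pair, with a spacer of 0 to 13 bases, was found in the windows of 20 of 27025 genes (0.074%), and in 1 of 24 arrest targets with a promoter in the table. None of the 15 apoptosis, 12 repair or 17 metabolism targets had it in these windows.

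The motif TTTGAA, known from mitotic promoters as the cell-cycle genes homology region, is shown for the 6 mitosis genes with the largest rises in 25,26 cells among those that hold it. Each line is 30 bases of the gene's own strand with the motif in capitals (on Spag5 it lies on the opposite strand).
Bub1b, chr2:118598231-118598260, plus strand: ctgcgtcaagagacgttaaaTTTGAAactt
Cenpa, chr5:30666890-30666919, plus strand: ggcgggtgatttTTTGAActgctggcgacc
Ncapg, chr5:45669883-45669912, plus strand: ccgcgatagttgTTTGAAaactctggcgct
Ncapd2, chr6:125191692-125191721, minus strand: cagccgttgaggTTTGAAcagggaattgcg
Spag5, chr11:78301582-78301611, plus strand: gtgcgtattgggTTCAAAtagaggcggcgg
Espl1, chr15:102296254-102296283, plus strand: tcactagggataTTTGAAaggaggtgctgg
The motif was found in 34 of the 46 mitosis genes with a promoter in the table (73.9%), against 20.2% of all 27025 genes. It was found in 4 of 35 replication genes (11.4%) and in none of the 24 arrest targets.

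The E2F-type octamers TTTCCCGC, TTTGGCGC and TTTCGCGC are shown for the 4 replication genes with the largest rises among those that hold one (on Cdc6 it lies on the opposite strand).
Cdc6, chr11:98908002-98908031, plus strand: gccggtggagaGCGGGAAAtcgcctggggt
Uhrf1, chr17:56304117-56304146, plus strand: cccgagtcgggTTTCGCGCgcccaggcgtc
Mcm6, chr1:128359797-128359826, minus strand: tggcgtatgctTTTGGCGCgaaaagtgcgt
Mcm3, chr1:20820263-20820292, minus strand: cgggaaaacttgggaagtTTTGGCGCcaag
An octamer was found in 15 of 35 replication genes (42.9%), in 3 of 46 mitosis genes (6.52%) and in 2.12% of all genes. The median log2 difference of the mitosis genes, 25,26 minus WT, was 0.98 with TTTGAA and 1.07 without it.

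In 25,26 cells 1828 of 15266 tested genes differed from WT (12.0%): 1069 were higher (7.0%) and 759 were lower (4.97%), by limma with arrays blocked by title number and a Benjamini-Hochberg adjusted p below 0.05. The median difference of all genes was -0.0023 on the log2 scale, as every difference below is, and every level below is a log2 intensity of 1 probe set. At least 2-fold differences among the called genes numbered 91 higher and 100 lower. The number 5 occurs in 1 title only, so 25,26 replicate 5 carried no weight in these differences, and replicate 4 carried a weight of 0.165, against 0.275 to 0.285 for replicates 1 to 3. Without 25,26 replicate 1 the count of called genes was 981 and without 25,26 replicate 3 it was 1118. Without WT Cre replicate 3, whose labels disagree, it was 1612. With the LSL-WT Cre arrays as the WT group 1161 genes were called (7.61%; 4.89% higher and 2.71% lower), and with the WT Cre arrays 3357 (22.0%).

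The array medians lay between 59.9 and 64.22 intensity units over all 23 arrays, and the number of arrays limits the precision. The p53 transcript and H-Ras transcript are not analysed here, so the labels were checked through p53 target genes only. Arrays numbered 2 were low in cell-cycle genes in the 25,26, LSL-WT Cre and WT Cre groups. Xist, the X-inactivation RNA of female cells, differed between arrays: it was at 12.70, 12.58, 12.21, 6.63 and 12.12 in 25,26 replicates 1 to 5, and spanned 6.40 to 12.71 in WT, with 1 LSL-WT Cre array and all 3 WT Cre arrays high. Its part in the results was not tested beyond a fit with Xist as a covariate, which called 1944 genes.

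Classical arrest and feedback targets of p53 were lower in 25,26 cells. Of 27 tested, 17 fell and 1 rose, against 4.97% and 7.0% of all genes, and the list median was -0.55. This list and those below were chosen with earlier results of these data known, so their counts beside the all-gene shares are descriptive. The groups did not overlap for 12 of them, all lower, against 4.43% of all genes (2.21% higher and 2.22% lower). The mean level of the list was between 9.40 and 9.62 in the 5 25,26 arrays and between 10.14 and 10.58 in the 6 WT arrays. Without the arrays numbered 2, an alternative chosen after the data were seen, 11 fell.

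**Figure D1:**
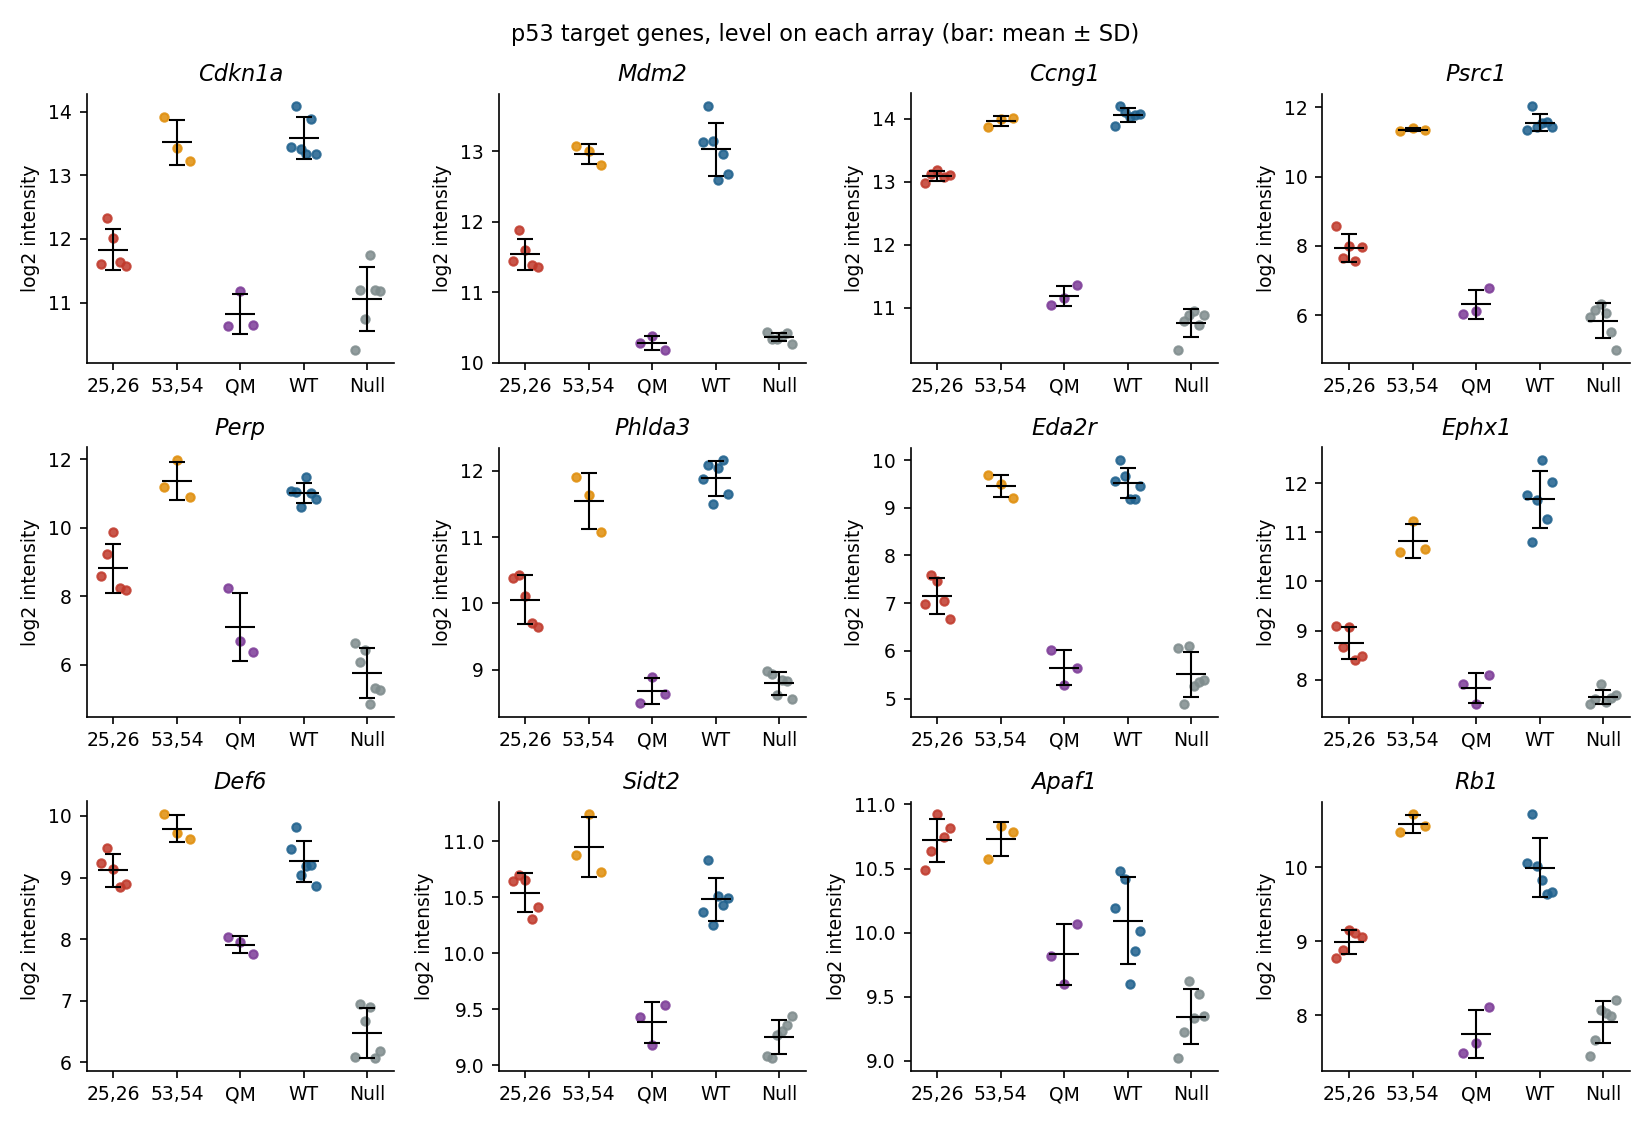
Level of 12 genes on each array (y axis, log2 intensity) by group (x axis): points are arrays, the long tick is the mean and the bars are 1 SD. Cdkn1a, Mdm2, Ccng1, Psrc1, Perp, Phlda3, Eda2r, Ephx1 and Rb1 have all 5 25,26 arrays below all 6 WT arrays, while the groups overlap for Def6 and Sidt2 and all 25,26 arrays are above WT for Apaf1.

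Cdkn1a, the p21 Cdk inhibitor, was at 11.61, 12.33, 12.01, 11.64 and 11.58 in the 25,26 arrays, against a lowest of 13.33, a median of 13.43 and a highest of 14.09 in WT. All 25,26 arrays lay below all WT arrays, and the difference was -1.66 ± 0.15 (SE), a 3.16-fold lower level (limma adjusted p = 2.12e-06). The level stood 0.91 above Null (adjusted p = 4.18e-04), where the arrays ran between 10.25 and 11.75. Mdm2, the ligase that degrades p53, had 11.45, 11.88, 11.60, 11.39 and 11.36 in 25,26 and 12.60, 13.05 and 13.65 as lowest, median and highest in WT. Again no array of one group reached the other, at -1.40 ± 0.14, or 2.64-fold lower (limma adjusted p = 9.99e-06).

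Psrc1, a microtubule-associated protein induced by p53, gave the largest fall of the list. Its 25,26 values were 8.56, 7.64, 7.99, 7.56 and 7.96, and its WT values had a lowest of 11.35, a median of 11.49 and a highest of 12.05. The groups were far apart at -3.49 ± 0.22, an 11.2-fold lower level (limma adjusted p = 6.48e-08). Ccng1, which makes cyclin G1, was at 12.97, 13.12, 13.19, 13.07 and 13.11 in 25,26, against 13.88, 14.07 and 14.20 as lowest, median and highest in WT. This smaller difference of -0.9997 ± 0.08 was also without overlap (limma adjusted p = 5.70e-07), and Ccng1 stood 2.34 above Null.

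Trp53inp1, a stress-induced regulator of p53 and autophagy, fell by 1.61 in 25,26 cells. Btg2, an antiproliferative cofactor of mRNA decay, fell by 1.46, and Rprm, which makes the G2 arrest protein Reprimo, fell by 1.63. Ptprv, a receptor phosphatase gene, fell by 1.76, and Plk2, a Polo-like kinase, fell by 0.92. The other probe set of Plk2 differed by 0.09 and was not called. Zmat3, an RNA-binding p53 target, fell by 0.62 and its groups overlapped. Fbxw7, the receptor subunit of a ubiquitin ligase for cyclin E and Myc, fell by 0.55. Sesn2 fell by 0.81 while Sesn1, its relative in stress signalling to mTOR, was the member called higher, by 0.45 ± 0.09 (limma adjusted p = 0.0028). Of its 3 probe sets 1 was called, and the mean of the 3 differed by 0.23 and did not pass (adjusted p = 0.0569). Gadd45a, a stress gene of DNA damage, differed by 0.03 ± 0.12 (adjusted p = 0.911), and Mdm4, the partner of Mdm2, by -0.05 ± 0.15 (adjusted p = 0.881). Mdm4 was higher than in the WT Cre arrays by 0.30 and lower than in the LSL-WT Cre arrays by 0.40.

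Apoptosis targets were lower as well, with 9 of 18 tested falling, 1 rising and a median of -0.50, against 4.97% and 7.0% of all genes. No overlap between the groups was seen for 8 members below WT and 1 above it, against 2.22% and 2.21% of all genes. The list mean was between 9.0047 and 9.46 in 25,26 and between 9.72 and 10.37 in WT.

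Perp, a p53-induced desmosomal membrane protein, was at 8.58, 9.22, 9.86, 8.24 and 8.18 in 25,26, and at 10.61, 11.04 and 11.47 as lowest, median and highest in WT. All 25,26 arrays were lower, by 1.83 ± 0.36 or 3.55-fold (limma adjusted p = 0.00325), and replicate 3 was the highest of them. Perp was nevertheless 3.23 above Null (adjusted p = 1.08e-05). Phlda3, a p53-induced inhibitor of Akt, had 10.38, 10.43, 10.11, 9.71 and 9.64 in 25,26, against 11.49, 11.96 and 12.17 as lowest, median and highest in WT. The difference of -1.60 ± 0.10 had the smallest adjusted p of the p53 lists (limma adjusted p = 4.99e-08). Eda2r, a TNF-receptor family member, was at 6.99, 7.59, 7.47, 7.04 and 6.67 in 25,26, and at 9.18, 9.51 and 10.01 in WT as lowest, median and highest. Its fall of 2.16 ± 0.23 was the largest of the list (limma adjusted p = 1.99e-05).

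Pmaip1, which makes the BH3-only protein Noxa, fell by 1.28, and Ei24, an endoplasmic reticulum protein induced by p53, fell by 1.28. Pidd1, a scaffold for caspase-2, fell by 1.05 and Aen, an apoptosis nuclease, fell by 0.77. Fas, the death receptor, fell by 1.09 ± 0.26 (limma adjusted p = 0.0124), though it no longer passed without 25,26 replicate 1 (0.0519) or 25,26 replicate 2 (0.0507). Bbc3, which makes Puma, was lower by 0.49 (adjusted p = 0.0337), and that call ended without any of 25,26 replicates 1, 2 and 4 (0.125, 0.0818 and 0.0774) or LSL-WT Cre replicates 1, 2 and 3 (0.0568, 0.0644 and 0.063). Apaf1, the core of the apoptosome, went the other way: its 25,26 values of 10.49, 10.64, 10.93, 10.75 and 10.81 all exceeded the WT highest of 10.48, with a WT median of 10.10 and lowest of 9.60. The rise was 0.59 ± 0.13 (limma adjusted p = 0.008), and it was 0.86 against the WT Cre arrays and 0.32 against the LSL-WT Cre arrays. Dapk1 and Siva1 did not pass the test, at -0.47 ± 0.23 and -0.20 ± 0.11, and both were above Null, by 1.57 and 0.92.

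Of 15 repair and redox targets 4 were lower and none higher, against 4.97% and 7.0% of all genes, with a median of -0.22. Only 2 were lower without 25,26 replicate 1, without 25,26 replicate 2 or without WT Cre replicate 1. Averaging all probe sets of each gene also left 2. The exception in size was Ephx1, microsomal epoxide hydrolase, at 9.10, 8.67, 9.07, 8.40 and 8.49 in 25,26 and 10.80, 11.71 and 12.48 as lowest, median and highest in WT. The groups lay far apart, by -2.79 ± 0.18 or 6.90-fold (limma adjusted p = 6.48e-08). Ercc5, the XPG nuclease of nucleotide excision repair, fell by 0.70 ± 0.13 and stood 1.48 above Null. Polk, a translesion polymerase, and Mgmt, which reverses alkylated guanine, differed from WT by -0.27 ± 0.13 (adjusted p = 0.205) and -0.39 ± 0.13 (adjusted p = 0.059). Autophagy and metabolism targets had 5 of 17 lower, 2 higher and a median of -0.18. Without 25,26 replicate 1, 2 were lower and 3 higher, and without 25,26 replicate 2, or without the block, 3 were lower. Ddit4, an inhibitor of mTORC1, fell by 1.12 and was 0.08 ± 0.17 above Null, a difference that did not pass (adjusted p = 0.828). Cpt1c, a carnitine palmitoyltransferase, fell by 0.78, while Pank1, which starts coenzyme A synthesis, and Prkab1, an AMPK subunit, rose by 0.50 and 0.35.

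The study's publication names genes that 25,26 still induces. They were chosen there with arrays of this kind, so their levels here are not independent evidence of their direction. Of 11 tested, 3 were below WT and 1 (Apaf1) above it, against 4.97% and 7.0% of all genes, and the median was -0.27. All 11 were above Null (7.62% of all genes were). Sidt2, a lysosomal membrane protein, was at 10.64, 10.70, 10.66, 10.31 and 10.41 in 25,26, with 10.25, 10.47 and 10.83 as lowest, median and highest in WT, which is full overlap at 0.13 ± 0.13 (adjusted p = 0.594). Crip2, a LIM-domain protein, differed from WT by -0.39 ± 0.23 and from Null by 2.93. Abhd4, a lipase, differed from WT by -0.18 ± 0.12, and Kank3, of the Kank scaffold family, by -0.12 ± 0.16. Arap2, a GTPase-activating protein, fell by 0.94, and Phlda3 and Ercc5 also belong to this list.

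How far 25,26 levels lay between Null and WT was described for genes whose WT and Null levels differed by at least 1. The share is the 25,26 minus Null difference as a percentage of WT minus Null, and it has no test. Among arrest targets it had a median of 44.6% over 14 genes, with Rprm at 19.8%, Cdkn1a at 35.4%, Mdm2 at 47.0%, Ccng1 at 70.1% and Zmat3 at 75.9%. Among apoptosis targets the median was 51.5% over 11 genes, with Siva1 highest at 82.4% and Pidd1 lowest, its 25,26 minus Null difference being 0.31 and its WT minus Null difference 1.36. Repair targets had 65.9% over 6 genes, with Ephx1 at 29.3% and Polk at 87.1%. The published retained genes had 87.3% over 10 genes and reached 110.4% for Sidt2. They were named in the publication because 25,26 still induces them, so a high share is built into that list. For genes that p53 lowers, the medians were 38.2% over 53 mitosis genes, 46.5% over 22 replication genes and 49.8% over 9 homologous recombination genes.

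**Figure D2:**
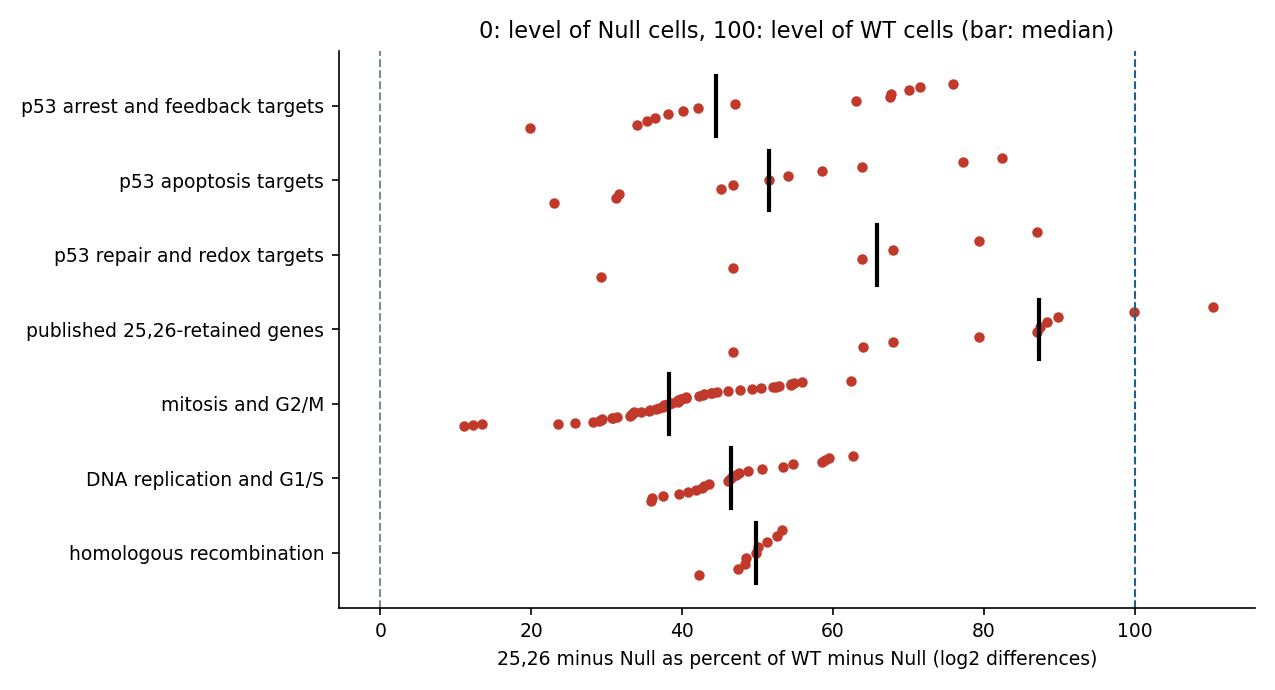
Each point is a gene with WT and Null levels at least 1 apart on the log2 scale; the x axis is the 25,26 minus Null difference in percent of the WT minus Null difference, rows are gene lists and bars are medians. The points of arrest, mitosis and replication genes centre between 38.2% and 46.5%, and those of the published retained genes at 87.3%. The retained genes were named because 25,26 still induces them, so their high share is built into the list.

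Genes of mitosis and the G2/M transition were higher in 25,26 cells. Of 56 tested, 51 rose, 1 fell and 4 did not pass, and the median was 0.98. Over all genes 7.0% rose and 4.97% fell. The list mean was 10.33, 9.41, 10.10, 10.36 and 10.34 in the 25,26 arrays and ran between 7.97 and 9.48 in WT. Replicate 2 of 25,26 was the lowest and fell inside the WT range, and within each title number the 25,26 array was above both WT arrays: by 0.98 and 0.86 at number 1, by 1.44 and 0.99 at number 2, and by 0.78 and 0.63 at number 3 (LSL-WT Cre first, then WT Cre). Of the 56 genes, 15 had groups with no overlap, all higher, against 2.21% of all genes. When the 11 compared arrays were fitted alone without the block, 21 rose.

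**Figure D3:**
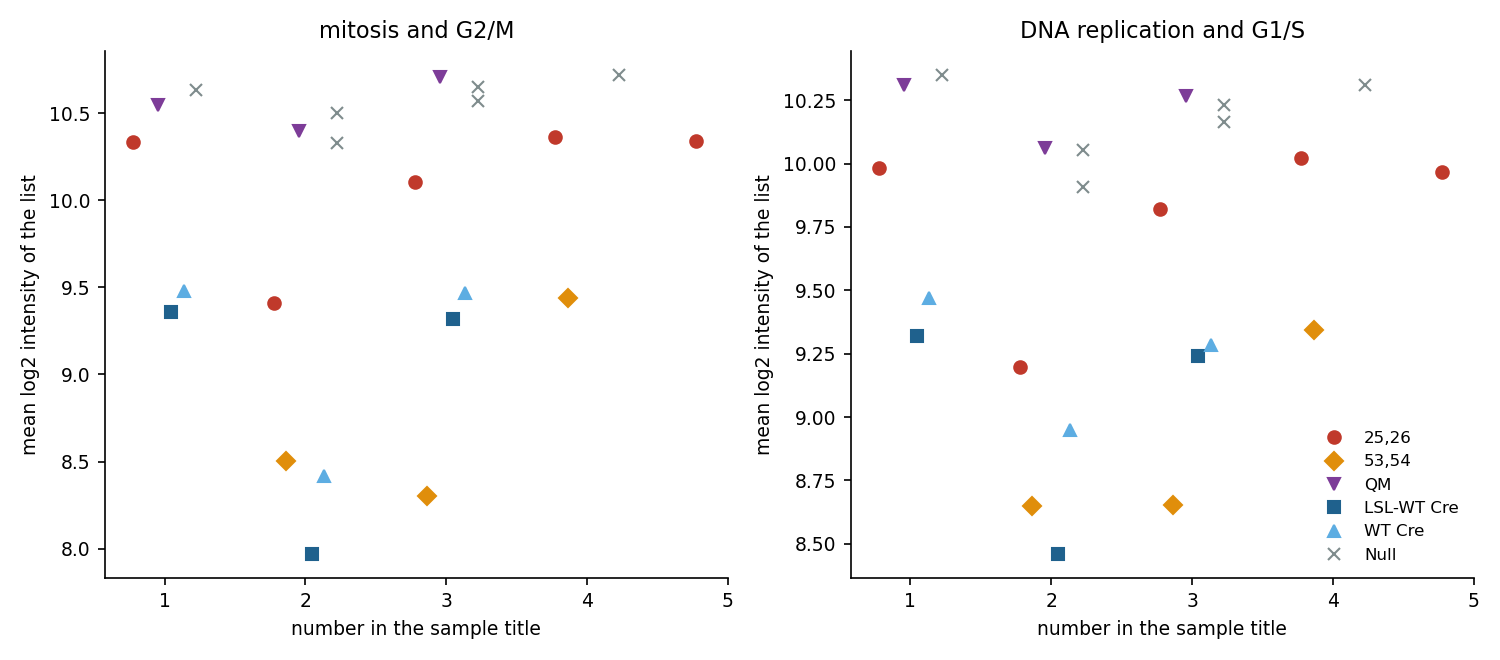
Mean log2 intensity of the mitosis list (left) and the replication list (right) on each array (y axis), by the number in the sample title (x axis) and group (symbol). At every shared number the 25,26 array is above the WT arrays and below the Null and QM arrays, and number 2 is low in 25,26 and both WT parts.

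Bub1b, a spindle checkpoint kinase, was at 10.64, 9.59, 10.07, 10.43 and 10.44 in 25,26, and at 7.76, 8.98 and 9.29 as lowest, median and highest in WT. The difference was 1.42 ± 0.22 or 2.68-fold, and the groups did not overlap (limma adjusted p = 5.52e-04). Cenpa, the histone that marks centromeres, was at 11.15, 10.67, 10.89, 11.13 and 11.0004 in 25,26, and at 8.72, 9.81 and 10.12 in WT. No array overlapped, at 1.36 ± 0.18 (limma adjusted p = 1.85e-04). Ncapg and Ncapd2, condensin subunits that compact chromosomes, rose by 1.29 and 1.28. Cenpa and Ncapd2 each had 1 of 2 probe sets called, the other differing by 0.09 and 0.15. Bub1b had 2 of 3 called and Ncapg 2 of 2. Spag5, a spindle protein, and Espl1, which makes the separase that cuts cohesin, rose by 1.16 and 1.15. Plk1, a master kinase of mitosis, rose by 1.11 and Aurka, the centrosomal Aurora kinase, by 0.95. Mki67, the proliferation antigen Ki-67, rose by 1.07 ± 0.28 with overlapping groups, a call that ended without 25,26 replicate 1 (adjusted p = 0.0771) or 25,26 replicate 3 (0.0663), and against the WT Cre arrays (0.0739). Another 4 members had positive differences that missed the threshold: Cdk1 at 0.65 (adjusted p = 0.0719), Birc5, which makes survivin, at 0.70 (0.0524), Kif11 at 0.79 (0.0766) and Fbxo5 at 0.60 (0.124). Ckap2, a spindle protein, was the member that fell, by 0.48 (adjusted p = 0.0257). Its call ended without 25,26 replicate 2 (0.135), 25,26 replicate 4 (0.0539) or WT Cre replicate 1 (0.0507), and without the block (0.238).

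DNA replication and G1/S genes followed with smaller differences: 25 of 43 rose, none fell and the median was 0.48. Over all genes 7.0% rose and 4.97% fell. Without 25,26 replicate 1 or without 25,26 replicate 3, 14 rose. Cdc6, which loads the replicative helicase, was at 8.94, 7.54, 8.91, 9.25 and 9.19 in 25,26 and at 6.09, 7.73 and 7.89 in WT. Replicate 2 of 25,26 lay inside the WT range, and the rise was 1.10 ± 0.23 (limma adjusted p = 0.00535). Prim1, a primase subunit, rose by 1.06, and Gins1, of the helicase complex, by 0.89. Mcm6, a helicase subunit, rose by 0.81, a call that ended without 25,26 replicate 3 (adjusted p = 0.055). Uhrf1, which guides maintenance DNA methylation, and Rfc5, a clamp loader subunit, rose by 0.90 and 0.87 with no overlap. Of 12 homologous recombination genes 9 rose and none fell, with a median of 0.70, among them Rad54l by 0.86, Fancb by 0.86 and Brip1 by 0.69. Of 11 senescence-related chromatin and lamina genes 9 rose and none fell, with a median of 0.57; without the arrays numbered 2, 5 rose. Hmgb2, a chromatin protein lost in senescence, rose by 0.94. Dnmt1, the maintenance methyltransferase, and Lmnb1, which makes lamin B1, were higher by 0.65 and 0.47, and neither passed without the block (adjusted p = 0.231 and 0.147) or in the 129 arrays alone (0.366 and 0.124).

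Regulators of the Rb pathway moved in both directions. Of 24 genes of the Rb, E2F and cyclin list 6 rose, 2 fell and the median was 0.11, against 7.0% and 4.97% of all genes. With the 11 compared arrays and the block alone 2 rose and none fell, and in the 129 arrays alone 2 rose and 1 fell. Without the arrays numbered 2, an alternative chosen after the data were seen, 3 rose and 2 fell. Rb1, the retinoblastoma protein that holds E2F in check, was at 8.78, 8.88, 9.16, 9.11 and 9.06 in 25,26, and at 9.64, 9.93 and 10.72 in WT. The groups did not overlap and the level fell by 1.07 ± 0.18 (limma adjusted p = 0.00126). Its relative Rbl1 rose by 0.62, as did Lin9, a subunit of the cell-cycle complex DREAM, by 0.86, Cdk6 by 0.40 and Tfdp1, the partner of E2F, by 0.33. The calls of Rb1, Cdk6 and Tfdp1 ended with the 11 compared arrays and the block alone. Of 7 Cdk inhibitors 3 were called higher and Cdkn1a lower, but 1 was higher without 25,26 replicate 1, and none with the LSL-WT Cre arrays as WT or with the 11 compared arrays and the block alone. Cdkn2a, the locus of p16 and Arf, was at 11.53, 12.70, 12.46, 11.88 and 12.07 in 25,26, against 10.25, 10.75 and 11.73 in WT. Replicate 1 of 25,26 lay inside the WT range, and the difference was 1.20 ± 0.25 or 2.29-fold (limma adjusted p = 0.00551). Against the LSL-WT Cre arrays it was 0.76 and did not pass (adjusted p = 0.0584).

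**Figure D4:**
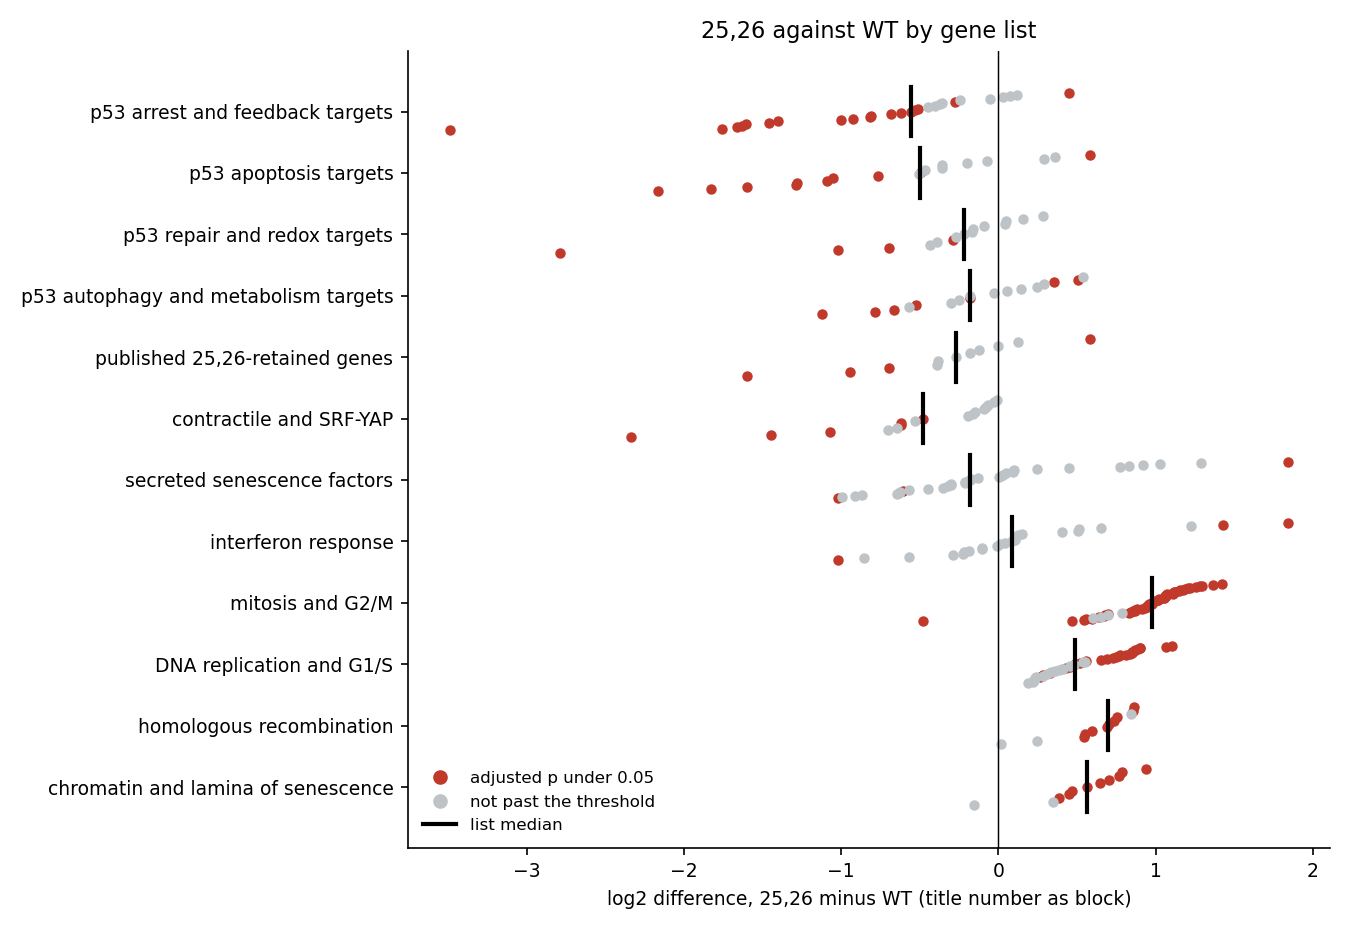
Log2 difference of each tested gene, 25,26 minus WT with the title number as block (x axis), by gene list (rows); red points passed adjusted p below 0.05, grey points did not, and black bars are list medians. Medians run between -0.55 for arrest targets and 0.98 for mitosis genes.

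Secreted factors of senescent cells had 2 of 35 lower and 1 higher, with a median of -0.18. Csf1, the macrophage colony-stimulating factor, was at 10.56, 10.21, 10.39, 10.60 and 10.55 in 25,26 and at 11.06, 11.37 and 11.94 in WT, lower on every array by 1.02 ± 0.21 (limma adjusted p = 0.00446). Timp1, an inhibitor of matrix metalloproteinases, fell by 0.61, a call that ended without 25,26 replicate 3 (0.0533). Cxcl10, an interferon-induced chemokine, rose by 1.84 ± 0.43 with overlapping groups (adjusted p = 0.0106), and that call ended without 25,26 replicate 1 (0.0569) or 25,26 replicate 3 (0.056), and against the LSL-WT Cre arrays (0.0732). Of 25 interferon-response genes 2 rose and 1 fell, and of 13 NF-kB response genes 1 rose. Of 20 cholesterol synthesis genes 3 rose, with none called against the LSL-WT Cre arrays and 12 against the WT Cre arrays. Extracellular matrix genes had 2 of 26 higher and 2 lower, unfolded protein and ATF4 genes 4 of 17 higher and 1 lower, and MAPK feedback genes 4 of 17 higher and 1 lower. Ribosome biogenesis had 1 of 17 higher, glycolysis 2 of 13 higher and 1 lower, and lysosome genes 2 of 19 lower. Over all genes 7.0% were higher and 4.97% lower. These small counts moved when 1 array was left out. Unfolded protein genes had 2, 1 and 2 higher without 25,26 replicate 1, 2 and 4, and MAPK feedback genes had 2 without 25,26 replicate 1 or 2 and none without the block. Over all 11 omissions, the number higher ran between 0 and 2 for interferon genes, 0 and 2 for NF-kB genes, 0 and 7 for cholesterol genes, 1 and 4 for matrix genes, 1 and 2 for glycolysis and ribosome genes, and 0 and 2 for secreted factors. The number lower ran between 0 and 3 for lysosome genes and 1 and 3 for secreted factors. The lowest count came without 25,26 replicate 1, 2 or 3 for interferon, cholesterol and matrix genes.

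Contractile genes under SRF and YAP control had 6 of 17 lower, none higher and a median of -0.48, against 4.97% lower and 7.0% higher of all genes. Ccn2, the connective tissue growth factor, was at 10.80, 8.68, 10.59, 10.24 and 10.58 in 25,26, against 11.50, 12.50 and 13.19 in WT. The groups did not overlap, replicate 2 was the lowest, and the fall was 2.34 ± 0.29 or 5.06-fold (limma adjusted p = 8.54e-05). Ccn2 was below Null too, by -1.27 (adjusted p = 0.0059). Ankrd1, a YAP target of the sarcomere, fell by 1.45 with no overlap and was below Null by -0.84 (adjusted p = 0.045). Without 25,26 replicate 2, without the arrays numbered 2, or with the LSL-WT Cre arrays as WT, 2 of the 17 fell. With the 11 compared arrays and the block alone, 1 fell.

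Beyond the lists, the largest falls with no overlap included genes of several kinds. Ano3, of the anoctamin membrane protein family, was at 4.77, 4.50, 4.37, 4.42 and 4.49 in 25,26, and at 7.53, 8.25 and 9.17 in WT. All 5 25,26 arrays were under 4.79, the level of the filter on low values, so the size is a bound. Ano3 was at least 11.04-fold lower than in WT, with each 25,26 array set to that level. The limma adjusted p of 6.48e-08 came from the log2 values as they stood, without that bound. Scn3b was under that level on 3 of the 5 25,26 arrays. Btn1a1, a butyrophilin of milk fat, fell by 3.03, Scn3b, a sodium channel beta subunit, by 2.23, and Dglucy, D-glutamate cyclase, by 2.13. The unnamed transcript gene 9230114K14Rik fell by 2.47, Glipr1 by 2.03, Inhbb, the activin B subunit, by 2.03, Ddit4l, a relative of Ddit4, by 1.84, Pid1 by 1.85 and Aga, a lysosomal amidase, by 1.83. Btn1a1 differed from Null by 0.02 and Inhbb by 0.07, with adjusted p of 0.971 and 0.868.

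Crct1, Ivl and Lce1h, genes of the cornified envelope of skin, were also among the 20 largest falls, at -2.88, -2.78 and -2.08. Epithelial markers stood beside them: 1 of 12 was lower (Dsp, desmoplakin) and none higher, against 4.97% and 7.0% of all genes. The Dsp call (adjusted p = 0.0421) ended without 1 of 25,26 replicates 1 to 4, LSL-WT Cre replicate 2 or any WT Cre replicate, with adjusted p between 0.0665 and 0.127. The markers' mean level was 6.72 to 7.04 in 25,26 and 7.04 to 7.51 in WT. The part of epithelial cells in these falls was not tested. In bulk samples fewer cells of a type and less RNA per cell cannot be told apart. Crct1 differed from LSL-WT Cre by -1.80 and from WT Cre by -3.93.

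The largest rises with no overlap included growth factors, transporters and matrix genes. Mdk, the growth factor midkine, was at 10.62, 9.58, 9.44, 9.17 and 9.41 in 25,26, against 6.69, 7.69 and 9.14 in WT. Replicate 1 was the highest and the rise was 2.12 ± 0.37 or 4.36-fold (limma adjusted p = 0.00154). Ntn1, the guidance cue netrin-1, was at 9.17, 9.53, 9.72, 9.38 and 9.63 in 25,26 and at 7.41, 7.90 and 8.12 in WT, higher on every array by 1.65 ± 0.26 (limma adjusted p = 8.51e-04). Tmem26 rose by 1.89, Slc7a3, a cationic amino acid transporter, by 1.80, Adcy8, an adenylyl cyclase, by 1.74 (against the LSL-WT Cre arrays by 1.06, adjusted p = 0.0597), Hunk, a kinase, by 1.55 and Cth, which makes cysteine, by 1.38. Fbln1, the matrix protein fibulin-1, rose by 1.51 and Car6, a carbonic anhydrase, by 1.31. Mdk differed from Null by 0.31 ± 0.36, Tmem26 by -0.08, Ntn1 by 0.33, Hunk by -0.01 and Fbln1 by -0.01, and none of the 5 passed the test against Null.

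**Figure D5:**
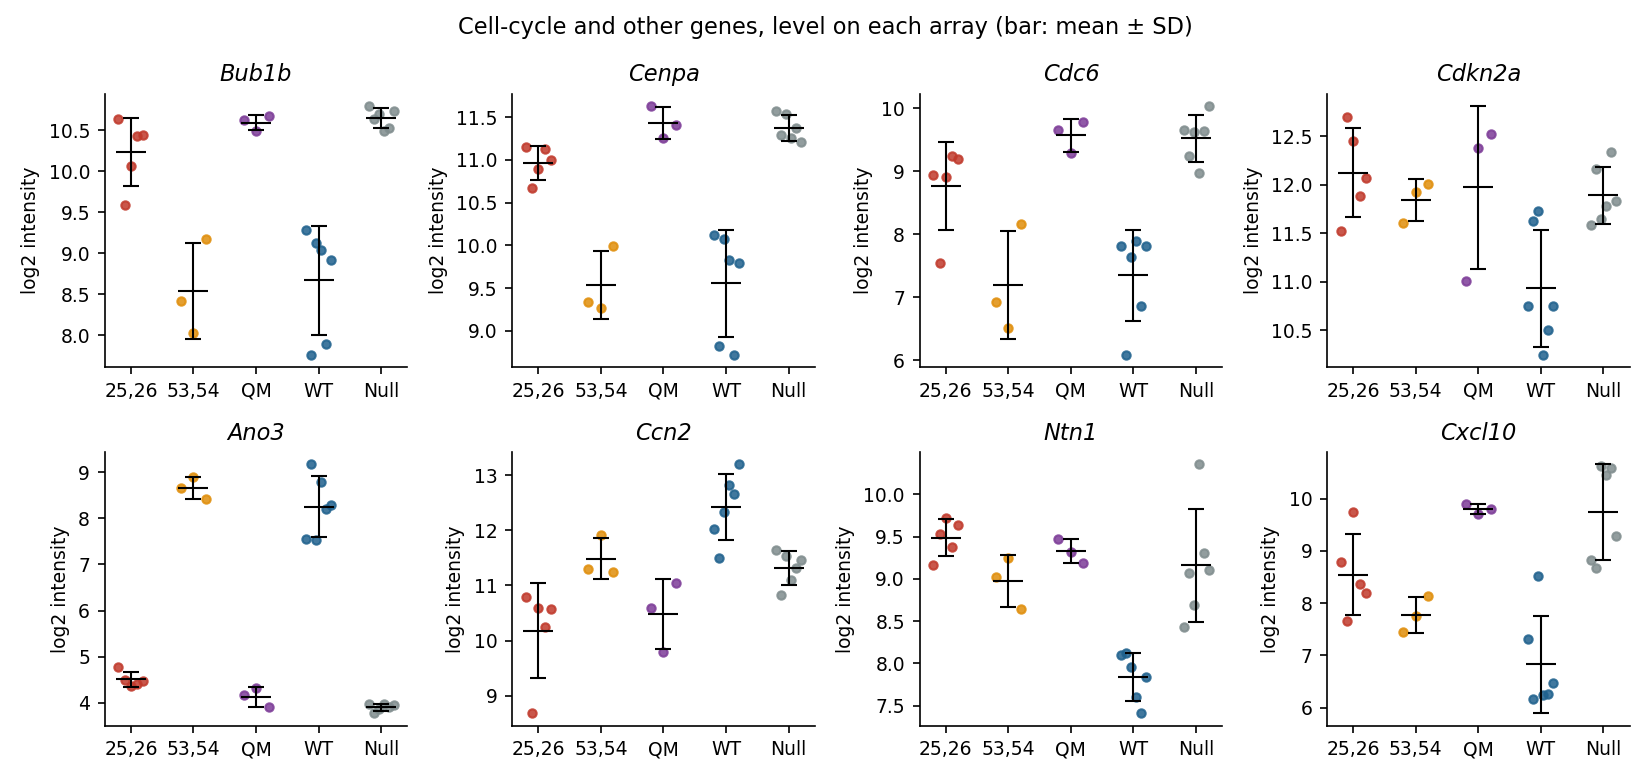
Level of 8 genes on each array (y axis, log2 intensity) by group (x axis): points are arrays, the long tick is the mean and the bars are 1 SD. Bub1b, Cenpa and Ntn1 are higher in all 5 25,26 arrays than in all 6 WT arrays, Ano3 and Ccn2 are lower in all of them, and the groups overlap for Cdc6, Cdkn2a and Cxcl10.

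Against Null cells, 25,26 called 2167 genes (14.2%), 1164 higher and 1003 lower (7.62% and 6.57%), and 656 without the block. Arrest targets were higher for 15 of 27 and lower for 1, apoptosis targets higher for 10 of 18, and mitosis genes lower for 26 of 56 with a median of -0.61. Both comparisons share the 25,26 arrays.

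The second-domain mutant differed from WT in 158 of all tested genes (1.03%, with 0.95% higher and 0.0852% lower), and 25,26 was also set against it directly. Against 53,54, 25,26 called 1361 genes (8.92%), 780 higher and 581 lower (5.11% and 3.81%). Arrest targets were lower for 16 of 27 and apoptosis targets for 11 of 18, and no member of either list was higher. Mitosis genes were higher for 54 of 56 with a median of 1.29 and replication genes for 39 of 43. Ano3, with all 25,26 arrays under the low-value level, was at least 14.6-fold lower. Large falls were also seen for Scn3b at -3.84, Psrc1 at -3.46 and Celf5, an RNA-binding protein, at -3.19. Sesn1 and Apaf1 differed from 53,54 by 0.07 and 0.03, with adjusted p of 0.779 and 0.941.

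Against QM, 25,26 called 603 genes (3.95%), 347 higher and 256 lower (2.27% and 1.68%). The lower calls depended on the block and on single arrays. Without the block 103 genes were called, 91 higher and 12 lower. Without QM replicate 2 there were 97 higher and 20 lower, and without 25,26 replicate 2 there were 180 higher and 50 lower. Arrest targets were higher for 9 of 27 and apoptosis targets for 8 of 18, with none lower in either list. All 11 published retained genes were higher, but they were named because 25,26 still induces them, so that count is not independent evidence. The transcript gene 1700007K13Rik was higher by 3.75, and Sulf2, which edits heparan sulfate, was higher by 2.96. Notch3, a receptor, was higher by 2.45 and Trp53inp1 by 2.44. Sulf2 was at 12.31, 12.23, 12.998, 12.47 and 12.60 in 25,26, with 12.53, 12.96 and 13.15 in WT, and its difference from WT of -0.42 ± 0.17 did not pass (adjusted p = 0.121). Mitosis genes were lower for 3 of 56 and replication genes for 12 of 43, Cdc6 among them at -1.12.

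The wild-type parts also differed from each other: LSL-WT Cre against WT Cre called 1359 genes (8.9%), 528 higher and 831 lower (3.46% and 5.44%), and 150 without the block. Mdm2 was 1.69 below LSL-WT Cre and 1.12 below WT Cre in 25,26, while Cdkn1a was 1.69 and 1.55 below. Among markers of other cell types, none of 6 macrophage, 7 neural and 5 cartilage markers was called between 25,26 and WT, and Ptprc, Itgam and Aif1, defining macrophage genes, did not pass the filter on low values. Of 7 muscle markers 1 was higher (Tnnt1, a troponin, by 0.64) and 1 lower (Acta1, skeletal actin, by -1.91), both with no overlap, and the Tnnt1 call ended without 25,26 replicate 1 (adjusted p = 0.0526). Of 5 endothelial markers 1 was higher (Cldn5, a claudin, by 0.35) and of 4 adipocyte markers 1 (Fabp4, a fatty acid binding protein, by 0.62). The Cldn5 call ended without 1 of 25,26 replicates 1 to 4, LSL-WT Cre replicate 2 or any WT Cre replicate, and the Fabp4 call without 25,26 replicate 2 or 3 or any WT Cre replicate. Over all genes 7.0% were higher, 4.97% were lower and 4.43% had no overlap. A single call in so short a list is not read as a result about its cell type. The part of such cells in the results was not tested. Of 12 fibroblast markers 2 were called higher, none without 25,26 replicate 1, 2 or 3, without the block or against the LSL-WT Cre arrays, and 5 in the 129 arrays alone. Their mean level was 12.13 to 12.35 in 25,26 and 11.35 to 12.42 in WT.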

How the data were processed

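RNA of 23 fibroblast samples was hybridised to Affymetrix mouse arrays. The deposited values are linear intensities, 1 per probe set, normalised by RMA per the submitters' processing notes, with its version not given in the sources used here. Values ran between 8.548 and 32042.1. Of 45101 probe sets, 64 controls were left out, 34945 had 1 gene symbol, 932 had several and 9160 were not listed. The symbols gave 18193 genes, of which 15266 passed the filter (at least 3 arrays above the 30th percentile, a log2 of 4.79).

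From these, log2 intensities were fitted with limma 3.58.1 in R 4.3.3 over all 23 arrays, with 5 p53 groups and the title number as a block, and p-values were adjusted by Benjamini-Hochberg. Arrays of the same number deviated together in all 6 pairs of 25,26 with a WT array, where r of 0.1 was required. Their r lay between 0.257 and 0.639 (median 0.374). The 24 pairs of other numbers ran between -0.527 and 0.528 (median -0.129), so some exceeded pairs of the same number. Deviations were taken within groups, which pushes pairs of other numbers towards negative r, so their median is no neutral baseline. Compared arrays numbered 2 shared a strain, as did those numbered 3, so strain and number could not be separated there. The labels do not say what the title number stands for. Members and lists were chosen with earlier results of these data known. Named genes were list members, the 20 largest rises and falls without overlap, and 10 each against 53,54 and QM. Alternatives covered the block, arrays, strain, filter, probe sets and normalisation.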

Additional observations from a re-analysis of the deposited data

Results flagged for a closer look

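Arrays that stood apart from the others of their group were looked for in 280 sets of values, and 28 were found; chance gives about 1 in 20. Array 2 of 25,26 was the lowest for Spag5 (8.74), Mki67 (9.94), Ckap2 (9.31), Cdc6 (7.54), Gins1 (7.44), Mcm6 (10.83) and Ccn2 (8.68). The same array was lowest for the mean levels of the mitosis (9.41), replication (9.20), Rb and cyclin (9.32) and NF-kB (8.56) lists, and highest for Cpt1c (10.14) and Inhbb (9.50).

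Replicate 3 of 25,26 was the highest for Dapk1 (10.01), Arap2 (8.80) and the mean of unfolded protein genes (10.57). Replicate 1 was the highest for Mdk (10.62), and replicate 5 was the lowest for Tfdp1 (11.61) and for the mean of endothelial markers (5.42). Among WT arrays, LSL-WT Cre replicate 2 was the highest for Psrc1 (12.05), Ptprv (10.22) and Arap2 (9.93) and the lowest for Fbxo5 (7.12) and Mcm3 (9.19). LSL-WT Cre replicate 1 was the lowest for Pank1 (7.01) and Btn1a1 (8.96). WT Cre replicate 1 was the highest for Prkab1 (9.53), and WT Cre replicate 2 for the endothelial mean (6.04).

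The difference of 25,26 from WT depended on which wild-type part was used for 18 of 110 named genes, by the limma contrast of the parts. The difference from WT Cre less that from LSL-WT Cre was 0.57 for Mdm2, 0.40 for Zmat3, 0.70 for Mdm4, 0.55 for Bbc3, 0.50 for Ei24, 0.54 for Apaf1, 0.42 for Siva1 and 0.87 for Cdkn2a. It was -0.68 for Csf1, -0.54 for Timp1, 0.70 for Fbln1, -2.14 for Crct1, -1.12 for Lce1h, 1.31 for Mdk, 1.24 for Adcy8, 1.02 for Celf5, -1.25 for Acta1 and 0.63 for Fabp4.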

How the results depend on the processing

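The replicate block raised the counts of called genes: without it 1176 genes were called for 25,26 against WT, 656 against Null, 713 against 53,54, 103 against QM, and 150 between the wild-type parts. Fitting the 11 compared arrays alone gave 522 genes with the block and 648 without it, all probe sets in place of 1 per gene gave 2809, and the 129 arrays alone gave 1093. The LSL-WT Cre arrays alone as WT gave 1161 and the WT Cre arrays alone 3357. Alternatives chosen after the data were seen gave 826 without the arrays numbered 2 and 16 with the mixed-background arrays alone, where 25,26 has 1 array. Leaving out 1 array at a time gave 981 to 2069 genes against WT, 1169 to 2167 against Null, 461 to 1361 against 53,54, 117 to 603 against QM and 273 to 1700 between the wild-type parts; 25,26 replicate 5 changes no count because it carries no weight. Centring each array on its median left 63.1% of called genes higher, against 58.5%.

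Of 93 called genes named here, 82 kept their call on every omission of 1 array, and none reversed. Some of these genes were picked as the largest called differences without overlap, which favours keeping a call. The omission of 25,26 replicate 5 could not end any call. Without the block 90 kept it, with the 11 arrays alone and the block 67, and without the arrays numbered 2, 78. The calls of Ckap2, Dnmt1 and Lmnb1 ended without the block. Mdm4, not called in all WT arrays, was higher by 0.30 against the WT Cre arrays alone. Of 47 called genes with several probe sets, 30 had all of them called the same way and none had one called the opposite way. In 2 genes, Plk2 and Mcm3, a probe set that was not called had the opposite sign. The number of arrays limits the precision, the labels name no litter, and strain is unevenly spread between 25,26 and WT and between 25,26 and 53,54.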
